A study of Rattus norvegicus with 10 samples.

Results

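The cytosolic ribosomal protein genes were taken by symbol from liver arrays of rats fed an ultraviolet filter. Members were the genes whose single platform symbol began with Rpl or Rps and a digit, or was Rplp0, Rplp1, Rplp2 or Rpsa, without the Rps6k kinases and without symbols marked as pseudogenes. This gave 48 genes of the 14217 genes measured, 15 of the small subunit and 33 of the large subunit, and 42 of them were among 79 canonical cytoplasmic ribosomal proteins listed by name. The other 6 were the paralogs or similarly named genes Rpl3l, Rpl7l1, Rpl26l1, Rpl39l1, Rps4y2 and Rps27l. Genes entered by symbol and not by their difference between groups, though earlier results of these data were known. The brightest probe set stood for each gene.

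Liver RNA came from Harlan Sprague Dawley rats, with 1 array per animal. The 5 HMB rats were fed HMB (2-hydroxy-4-methoxybenzophenone, also called oxybenzone, a sunscreen ingredient) at 10000 ppm in NTP-2000 diet for 13 weeks, and the 5 control rats received 0 ppm. HMB replicate 1 is labelled 0 ppm in its dose field but HMB in its title and chemical fields, and it stayed with the HMB group. Age and sex are not given in the sources used here. With 5 rats to a cage, each group may have been 1 cage, and cage and HMB cannot then be told apart.

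A cytosolic ribosome joins ribosomal RNA with 1 copy of most of these proteins. The small subunit decodes the messenger RNA and the large subunit forms the peptide bonds. Ribosomal protein mRNAs are among the most abundant in any growing or secreting cell, liver included, and nearly all begin with a run of pyrimidines, the TOP tract, through which mTOR and LARP1 control their translation. An array measures the level of the mRNA and not its translation.

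The starts of 9 members are shown because they include genes with large, small and positive differences between the groups. Each is 40 bases, 25 before and 15 from the transcript start annotated by RefSeq on assembly GRCr8, read along the transcript. Capitals mark the longest run of C and T alone, of at least 6 bases, that reaches into the 10 bases on either side of that start.
Rps16: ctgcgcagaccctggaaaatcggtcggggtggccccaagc
Rpl3: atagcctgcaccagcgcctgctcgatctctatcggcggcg
Rps24: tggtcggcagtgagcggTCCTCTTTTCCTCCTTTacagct
Rplp0: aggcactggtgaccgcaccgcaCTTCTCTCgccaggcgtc
Rpl18: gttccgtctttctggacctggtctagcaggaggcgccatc
Rpl11: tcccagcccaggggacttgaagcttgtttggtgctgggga
Rpl13a: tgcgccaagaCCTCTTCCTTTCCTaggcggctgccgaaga
Rpl21: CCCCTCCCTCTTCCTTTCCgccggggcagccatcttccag
Rps27l: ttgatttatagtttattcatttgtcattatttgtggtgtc
The plus strand windows were chr1:92770633-92770672 for Rps16, chr16:96492-96531 for Rps24, chr1:105325245-105325284 for Rpl18 and chr8:76443633-76443672 for Rps27l. On the minus strand lay chr7:113507976-113508015 for Rpl3, chr12:46718376-46718415 for Rplp0, chr5:153560788-153560827 for Rpl11, chr1:104748899-104748938 for Rpl13a and chr12:13386139-13386178 for Rpl21.

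Start sequences were matched for 43 of the 48 members, 41 by gene identifier and 2 by symbol. Rpl23a, Rpl27, Rpl30, Rpl7 and Rps29 had no entry. Of the 43, 32 had such a run at the start, or 74.4%, against 28.3% of all 33469 promoters in the RefSeq table. The motif CTTTCC, searched on both strands of the 300 bases from 250 before the start, was in 19 of the 43, or 44.2%, against 26.4% of all promoters, and GGAAAG is the same motif read on the other strand. Genes with and without a capitalised run stand side by side among those with the larger differences, since Rps24 and Rplp0 have one and Rps16, Rpl3 and Rpl18 do not. A match is a description of these letters only, and annotated starts can lie some bases from the start used in liver.

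The signals of the members fell into a bright and a dim class. In 38 genes the mean log2 signal over the 10 arrays was above 10, up to 12.98 for Rps29, where each array's brightest probe set reached 14.49 to 14.64. The other 10 had means from 2.50 for Rpl3l to 8.57 for Rpl7l1. Levels of different probe sets cannot be set against each other, so a dim signal does not show a scarce mRNA. For Rpl28, Rpl30 and Rps13 the probe set with 1 symbol had a mean of 2.75, 2.58 and 3.54, while probe sets that list these genes together with other symbols had means of 11.78, 11.79 and 11.74. RMA values carry no detection calls, so which dim members were above background was not determined. In bulk liver, fewer cells of a type and less RNA per cell cannot be told apart.

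None of the 48 ribosomal protein genes passed the test between HMB and control livers. By limma with Benjamini-Hochberg adjustment over all 14217 genes, 0 members had an adjusted p under 0.05, where 1.72% of all genes did (0.957% lower and 0.76% higher in HMB), and the lowest adjusted p of a member was 0.107. At an unadjusted p under 0.05 there were 9 members, all with lower means in HMB, against 13.4% of all genes that had such a p with a lower mean. In 41 of the 48 members the HMB mean was below the control mean, and the median log2 difference was -0.09, beside 53.5% of all genes below 0 and a median of -0.02. Among the 3554 genes with the highest mean levels, 71.2% were below 0 and the median was -0.07. Of those 3554, 603 had an unadjusted limma p under 0.05 with a lower mean in HMB.

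The differences of the bright members were small. Among the 38 bright members the log2 difference ran from -0.25 to 0.03, and their 95% intervals from the limma fit all lay between -0.52 and 0.17, or between 0.699-fold and 1.13-fold. Over all 48 the intervals ran from -0.63 to 0.53, both ends set by the dim Rps4y2. Standard errors of these 38 were 0.0575 to 0.128 on the log2 scale. Their control animals differed little from each other, with a median SD of 0.0564 in bright members against 0.152 over all genes, and 0.0763 against 0.157 among HMB animals. Other genes within the level range of the bright members had a median SD of 0.0818 in controls and 0.106 in HMB animals.

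**Figure D1:**
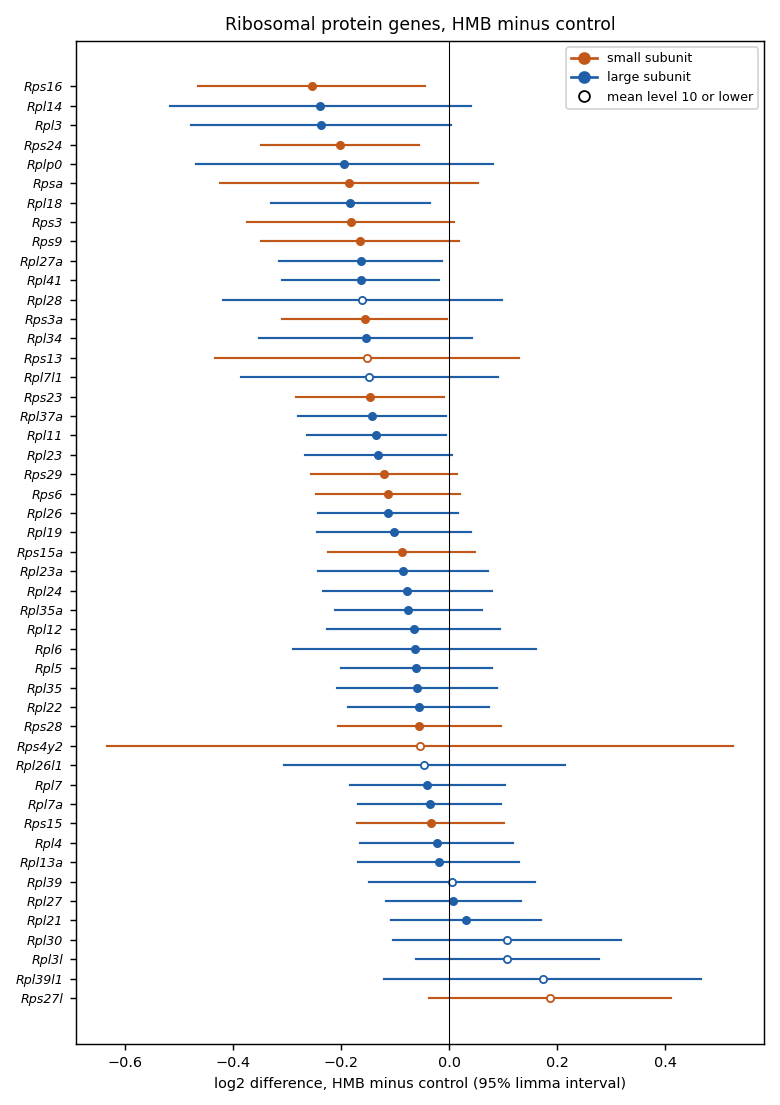
Log2 difference, HMB minus control, on the horizontal axis for each of the 48 ribosomal protein genes, with 95% limma intervals (n = 5 per group); orange marks small subunit and blue large subunit genes, and open points have a mean log2 level of 10 or lower. Nearly all points lie left of 0 (41 of 48), and none passed the adjusted threshold.

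By subunit, all 12 bright small subunit genes were below 0, with a median log2 difference of -0.15, and 24 of 26 bright large subunit genes were below 0, with a median of -0.08. The difference between the subunits was not tested. The 649 other genes whose levels lay in the range of the bright members had a median of -0.04, with 394 below 0 and 5 called. After cyclic loess normalization the bright members kept a median log2 difference of -0.11 with 36 of 38 below 0, while those 649 genes had a median of -0.00253. With quantile normalization the bright members had a median of -0.10, again with 36 of 38 below 0, and with the arrays centred on 1 common median it was -0.15 with 38 of 38 below 0. No member was called under any of these 3 scalings.

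Among small subunit genes, Rps16, a protein near the tRNA sites of the decoding subunit, had log2 levels of 11.52, 11.44, 11.07, 11.15 and 11.22 in HMB rats, against 11.51, 11.68, 11.54, 11.41 and 11.54 in controls. HMB 1 and 2 lay within the control range and the other 3 HMB animals below it. Its log2 difference of -0.25 ± 0.10 (SE; 5 rats a group) was the most negative of all 48 and did not pass (limma adjusted p = 0.137). Rps24, a small subunit protein mutated in some human Diamond-Blackfan anaemia, had 12.11, 12.06, 11.92, 11.99 and 11.96 in HMB rats, against 12.22, 12.17, 12.33, 12.16 and 12.18 in controls. All 5 HMB animals lay below all 5 controls, and the log2 difference was -0.20 ± 0.07 (limma adjusted p = 0.107). A second, dimmer Rps24 probe set gave -0.21 (adjusted p = 0.229 over probe sets).

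Other small subunit genes had smaller differences. Rps3, which lines the mRNA entry channel, averaged 11.00 ± 0.160 in HMB and 11.19 ± 0.0978 in controls (SD, n = 5 each), which differ by -0.18 (limma adjusted p = 0.221). Rps9 was at 11.56 ± 0.140 in HMB and 11.72 ± 0.102 in controls, with a log2 difference of -0.17 (adjusted p = 0.241). Rps6, the subunit that S6 kinases phosphorylate downstream of mTOR, had 12.28, 12.27, 12.17, 12.16 and 12.23 in HMB rats, against 12.38, 12.33, 12.38, 12.27 and 12.32 in controls. The Rps6 groups overlapped only through HMB 1 and 2 and control 4, and the log2 difference was -0.11 ± 0.06 (adjusted p = 0.267).

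Rpsa, the small subunit protein also known as the laminin receptor, gave different answers by probe set. Its brightest probe set had 11.17, 11.06, 10.66, 10.61 and 10.86 in HMB rats, against 11.00, 11.16, 11.14, 10.95 and 11.04 in controls, and a log2 difference of -0.19 ± 0.11 (limma adjusted p = 0.308). A second probe set, whose _s_at suffix also marks probes shared between transcripts, was at 10.89 in HMB and 10.92 in controls. The third, whose _x_at suffix marks probes shared with other transcripts, was at 10.07 in HMB and 9.85 in controls, a log2 difference of 0.22 (unadjusted p = 0.0137 from limma over probe sets, adjusted p = 0.121). The 3 Rpsa probe sets did not share a direction, and none passed.

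Among large subunit genes, Rpl3, which reaches into the peptidyl transferase centre, had 12.01, 12.00, 11.49, 11.52 and 11.76 in HMB rats, against 11.95, 12.06, 12.07, 11.87 and 12.01 in controls. HMB 3, 4 and 5 lay below all controls and HMB 1 and 2 among them, with a log2 difference of -0.24 ± 0.11 (SE; 5 rats a group; limma, adjusted p = 0.205). Its second probe set, dimmer and of the _x_at kind, had a difference of 0.14. Rpl14 had 10.59, 10.48, 10.04, 9.93 and 10.19 in HMB rats, against 10.43, 10.67, 10.46, 10.29 and 10.56 in controls. That is the same division of the HMB animals, with a log2 difference of -0.24 ± 0.13 (adjusted p = 0.263).

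Rpl18 had 11.75, 11.77, 11.58, 11.54 and 11.64 in HMB rats, against 11.86, 11.83, 11.89, 11.79 and 11.84 in controls. All HMB animals were below all controls, and the log2 difference was -0.18 ± 0.07 (SE; 5 rats a group; limma, adjusted p = 0.131). Rpl27a, at 12.45 ± 0.0984 in HMB and 12.61 ± 0.0557 in controls (SD, n = 5 each), had a log2 difference of -0.16 (adjusted p = 0.168).

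Rplp0, the base of the stalk that recruits elongation factors and a common reference gene in PCR, had 11.72, 11.57, 11.04, 11.13 and 11.44 in HMB rats, against 11.52, 11.72, 11.65, 11.43 and 11.56 in controls. The groups overlapped, with HMB 1 level with the highest control, HMB 2 and 5 among the controls and HMB 3 and 4 below the lowest. Its log2 difference was -0.19 ± 0.13 (SE; 5 rats a group; limma, adjusted p = 0.350), and the HMB animals had an SD of 0.290 against 0.113 in controls. Rplp1, another stalk protein, was measured only by a probe set that also lists its copies, and there the groups differed by -0.06 on the log2 scale (limma over probe sets, adjusted p = 0.667).

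Rpl5 and Rpl11 bind the 5S ribosomal RNA together and, when not built into ribosomes, inhibit Mdm2, the ligase that degrades p53. Rpl11 had 11.97, 11.99, 11.91, 11.93 and 11.90 in HMB rats, against 12.11, 12.06, 12.11, 12.01 and 12.10 in controls, with every HMB animal below every control. Its log2 difference was -0.13 ± 0.06 (SE; 5 rats a group; limma, adjusted p = 0.183). Rpl5 had 12.39, 12.44, 12.28, 12.30 and 12.30 in HMB rats, against 12.41, 12.42, 12.46, 12.32 and 12.40 in controls. Those groups overlapped, and the log2 difference was -0.06 ± 0.06 (adjusted p = 0.567). The array's 5S ribosomal RNA control probe set ranged from 5.18 to 6.50 in HMB and from 5.23 to 6.63 in controls. This is an array control signal and is not read here as the level of 5S ribosomal RNA.

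**Figure D2:**
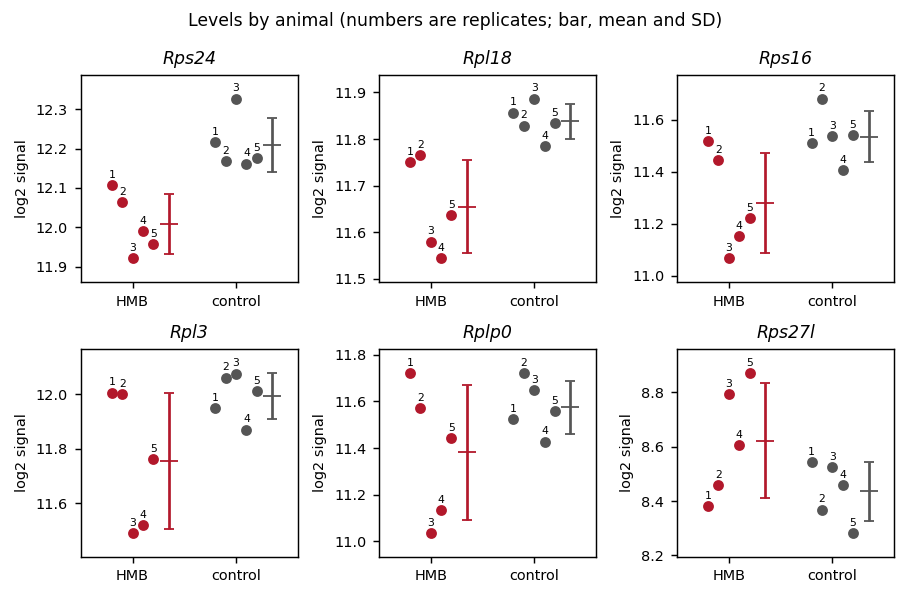
Log2 signal of 6 ribosomal protein genes by animal, HMB left of control in each panel; points are animals numbered by replicate, and the bar gives the mean and SD of 5. Rps24 and Rpl18 show no overlap between groups, Rps16 and Rpl3 have HMB 3, 4 and 5 below every control, Rplp0 has HMB 3 and 4 below them, and Rps27l has HMB 3, 4 and 5 above every control.

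Several bright large subunit genes had means within 0.06 of each other in the 2 groups. Rpl27 was at 12.20 ± 0.0145 in HMB and 12.19 ± 0.0382 in controls (SD, n = 5 each), with a 95% interval of the log2 difference from -0.12 to 0.13. Rpl13a, another common reference gene, had 12.04, 12.12, 12.26, 12.30 and 12.11 in HMB rats, against 12.19, 12.16, 12.23, 12.16 and 12.19 in controls. HMB animals of Rpl13a lay on both sides of the controls, and the interval ran from -0.17 to 0.13. Rpl22, an RNA-binding protein of the large subunit surface, was at 11.51 ± 0.0395 in HMB and 11.56 ± 0.050 in controls, with an interval from -0.19 to 0.07.

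Positive differences were found in 7 members, 5 of them dim. Rps27l, the paralog of Rps27 that p53 induces, had 8.38, 8.46, 8.79, 8.60 and 8.87 in HMB rats, against 8.54, 8.37, 8.53, 8.46 and 8.28 in controls. HMB 3, 4 and 5 were above every control and HMB 1 and 2 within the control range, and the log2 difference was 0.19 ± 0.10 (SE; 5 rats a group; limma, adjusted p = 0.273). Rpl39l1 at 2.81 ± 0.291 in HMB and 2.63 ± 0.171 in controls (SD, n = 5 each), the muscle paralog Rpl3l at 2.55 ± 0.126 in HMB and 2.45 ± 0.0823 in controls, and Rpl30 at 2.63 ± 0.158 in HMB and 2.52 ± 0.152 in controls had signals near the bottom of the array's range. Rpl21 differed by 0.03, Rpl27 by 0.01 and Rpl39 by 0.0046, the last from a level of 5.56 in both groups. Adjusted p-values of these 7 ran from 0.273 to 0.973.

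Groups did not overlap in 7 of the 48 members, with all 5 HMB animals lower each time, against 3.48% of all genes. They were Rps24, Rpl18, Rpl41, Rps23, Rpl37a, Rpl11 and Rpl23. The gaps were narrow. Rps23, a protein of the decoding centre, had 12.92, 12.91, 12.78, 12.83 and 12.85 in HMB rats, against 12.94, 13.01, 13.09, 12.99 and 12.99 in controls. In no member were all HMB animals above all controls, as 2.64% of all genes were.

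In other members the HMB animals divided. In 11 of the 48, HMB 3, 4 and 5 lay below all 5 controls while HMB 1 and 2 did not, against 4.24% of all genes and 9.55% of the 649 other genes at the levels of the bright members. They were Rps16, Rpl14, Rpl3, Rpsa, Rps3, Rpl34, Rps6, Rps15a, Rpl24, Rpl5 and Rpl7. The division was not particular to the members. In the related lists described below it held for 5 of 18 nascent chain genes, 9 of 38 initiation factors and 13 of 77 mitochondrial ribosomal proteins. It held for 4 of 31 mTOR genes, 3 of 68 ribosome biogenesis genes, and 1 of 14 each in the elongation and RNA polymerase I lists. The division was noticed in the data and these counts are a description. In the median bright member, HMB 1 to 5 deviated from the control mean by -0.05, -0.04, -0.17, -0.16 and -0.12 on the log2 scale, and controls 1 to 5 by 0.01, -0.01, 0.06, -0.06 and -0.01. HMB 1 and 2 thus lay within the range of the controls and the other 3 HMB animals below it. Control 4 was below the control mean in all 38 bright members and control 3 in 1.

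**Figure D3:**
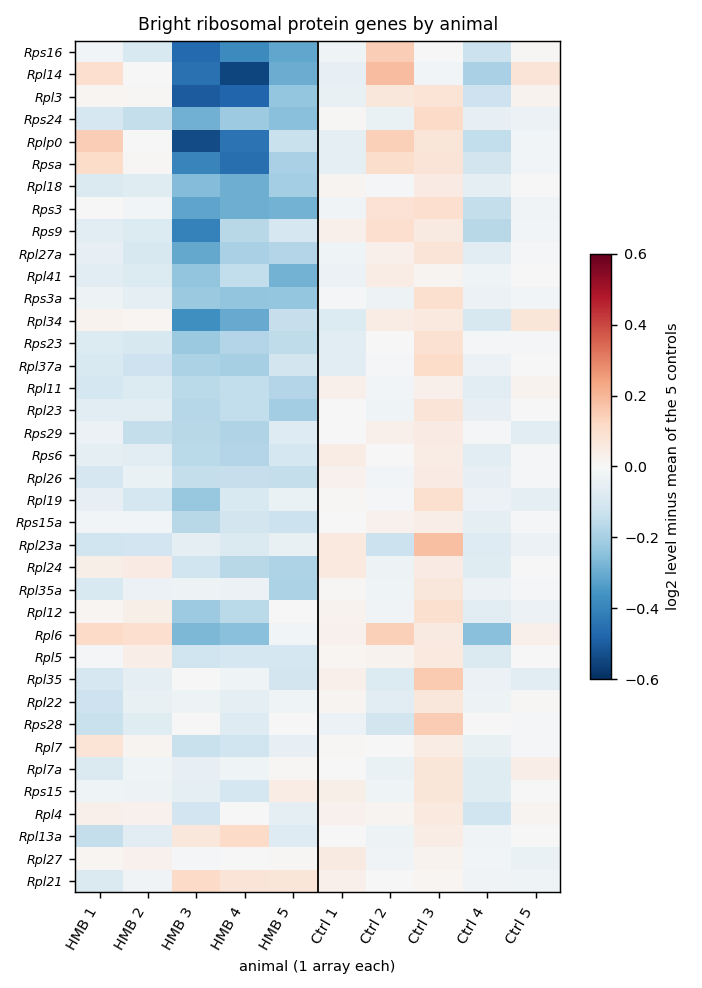
Log2 level minus the mean of the 5 controls, shown in colour for the 38 bright ribosomal protein genes (rows, from the most negative group difference at the top) in each of 10 animals (columns, HMB left of controls). HMB 3, 4 and 5 lie below the control mean in 35, 34 and 32 of the 38 genes, against 26 for HMB 1 and 27 for HMB 2.

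Some array measures moved with this division. The 3' minus 5' signal of the GAPDH control probe sets depends on RNA integrity and on how far labelling reached along a transcript. These cannot be told apart here. The GAPDH signal was 1.97, 2.09 and 1.90 in HMB 3, 4 and 5, and 1.31 and 1.38 in HMB 1 and 2. In controls it was 1.38 to 1.77. The same measure of the actin control probe sets was 3.62, 3.96 and 3.58 in HMB 3, 4 and 5, and 3.16 and 3.18 in HMB 1 and 2, against a control range from 3.255 to 3.641 that held HMB 3 and 5. The spread (SD) of log2 values over each whole array was 2.377, 2.385 and 2.382 in HMB 3, 4 and 5. It was 2.431 in HMB 1 and 2.426 in HMB 2, against 2.434 to 2.495 in controls. Every HMB array thus had a smaller spread than every control array. The poly-A minus hybridisation control signal was -1.54, -1.78 and -1.47 in HMB 3, 4 and 5, and -1.92 and -1.96 in HMB 1 and 2, against -2.19 to -1.90 in controls. Their part in the ribosomal protein values was not tested beyond the fits that follow. With the GAPDH measure as a covariate the members' median log2 difference was -0.10 and 0 were called, and with the poly-A control signal as a covariate it was -0.07 with 0 called. With HMB 1 and 2 left out, 3 members passed as lower, Rps16, Rpl3 and Rpl14, against 2.73% of all genes in that fit. These animals were set aside because of their values in the same genes, so the count restates the division and is no test of it. Likewise, with HMB 3, 4 and 5 left out the members' median was -0.06 and 0 passed.

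**Figure D4:**
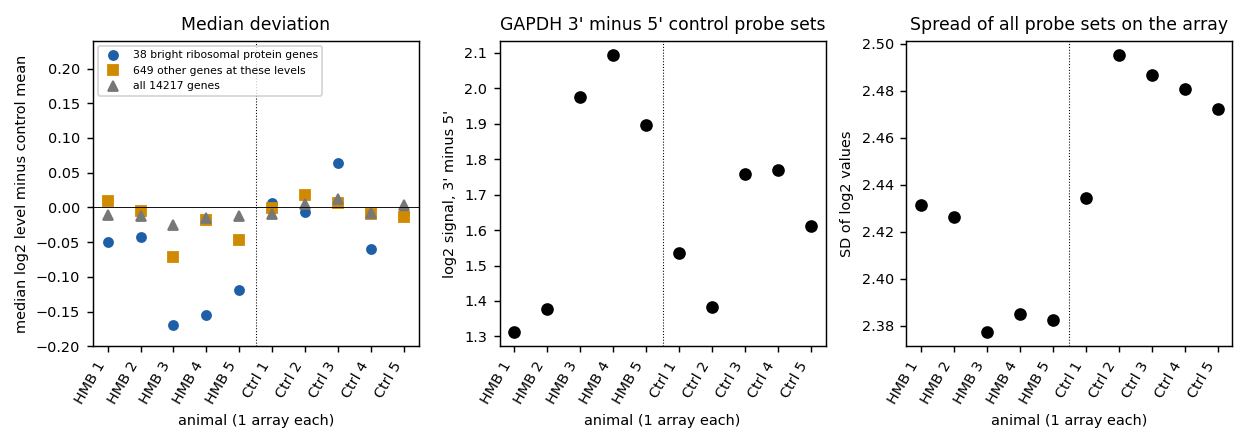
Left, the median log2 level minus the control mean per animal for the 38 bright ribosomal protein genes (circles), 649 other genes at these levels (squares) and all 14217 genes (triangles); middle, the GAPDH 3' minus 5' log2 signal; right, the SD of all log2 values on the array. HMB 3, 4 and 5 are lowest in the left panel (-0.17, -0.16 and -0.12), highest in the middle panel and lowest in the right panel.

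Ribosomal protein genes have many processed pseudogenes, and the platform gives several symbols to 36 further probe sets whose symbols are ribosomal protein genes, their pseudogenes or unnamed loci. Such a probe set can report on a gene and its copies at once. Of the 36, 29 had log2 differences below 0, the median was -0.08 and the range was -0.34 to 0.12. In the limma fit over all 31042 probe sets 0 of the 36 passed, where 1.7% of all probe sets did, and the lowest adjusted p was 0.0933. An unadjusted p under 0.05 was found for 2 of the 36, against 24.9% of genes in the fit over genes. Of the 6 members with more than 1 probe set of 1 symbol, the second probe set had the opposite sign in Rpl14 and Rpl3 and the same sign in Rpl7, Rpl7l1, Rps24 and Rpsa, while the third Rpsa probe set had the opposite sign.

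Related lists were chosen by function. Rack1, the scaffold protein of the small subunit and the 1 of 3 subunits under other names that was measured, had a log2 difference of -0.11 (limma adjusted p = 0.359). Of 68 measured ribosome biogenesis genes 3 fell, 0 rose and 65 did not pass, and 63 were below 0 with a median log2 difference of -0.21. The share of all genes called lower was 0.957%. At an unadjusted limma p under 0.05 there were 22 of the 68, all lower, against 13.4% of all genes with such a p and a lower mean. Rrs1, an assembly factor that brings the 5S particle into the large subunit precursor, had 7.87, 7.47, 8.11, 7.83 and 7.65 in HMB rats, against 8.33, 8.26, 8.25, 8.33 and 8.39 in controls. No HMB animal reached a control, and Rrs1 fell by a log2 value of 0.52 ± 0.11 (SE; 5 rats a group; limma, adjusted p = 0.0414). Gnl3, the nucleolar GTPase nucleostemin, fell by 0.55 ± 0.12 (adjusted p = 0.0464), and Imp3, a component of the small subunit processome, fell by 0.45 ± 0.10 (adjusted p = 0.0492). HMB 3 for Gnl3 and HMB 1 for Imp3 lay above control 1. Under cyclic loess the log2 differences were -0.41 for Rrs1, -0.46 for Gnl3 and -0.34 for Imp3, none of the 3 passed (limma adjusted p = 0.110, 0.0990 and 0.0962), and the list's median was -0.10 with 52 of 68 below 0. Control 1 was the lowest control in 50 of these 68 genes. In the median gene of the list HMB 1 to 5 deviated from the control mean by -0.11, -0.15, -0.20, -0.37 and -0.18, and controls 1 to 5 by -0.25, 0.07, 0.14, -0.09 and 0.14, so control 1 lay among the HMB animals. With control 1 left out, the median log2 difference was -0.27 and 12 of the 68 were called lower, against 4.1% of all genes called lower in that fit. Control 1 was singled out by its values in these same genes, so this count is no test of a fall.

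RNA polymerase I and its factors, which transcribe the ribosomal RNA precursor, had 0 called of 14. At an unadjusted p under 0.05 there were 5, all lower, against 13.4% of all genes with such a p and a lower mean. All 14 were below 0, with a median log2 difference of -0.24. Their smallest p-values belonged to Taf1d at -0.53 (limma adjusted p = 0.0670), Polr1g at -0.55 (adjusted p = 0.0733) and Polr1c at -0.27 (adjusted p = 0.106). After cyclic loess the median was -0.16 with 13 of 14 below 0. Control 1 was the lowest control in 11 of the 14. Without it the median was -0.30 and 2 were called lower, against 4.1% of all genes in that fit. Here too the choice of control 1 rests on values of these genes, and the count is no test.

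Of 38 initiation factors 0 were called, and 12 had an unadjusted limma p under 0.05, against 24.9% of all genes in either direction. Of these 12, 11 had a lower mean in HMB, where 13.4% of all genes had such a p and a lower mean. The list's median log2 difference was -0.16 with 33 below 0. After cyclic loess the median was -0.06 with 24 below 0. Eif2b3 and Eif2b4, subunits of the exchange factor of eIF2, were at -0.53 and -0.34 (limma adjusted p = 0.0899 and 0.0909), and the cap-binding Eif4e at -0.23 (adjusted p = 0.0935). Of 14 elongation and termination genes 0 were called, and 2 had an unadjusted p under 0.05, against the same 24.9% of all genes. The median of these 14 was -0.10, which was -0.04 after cyclic loess. The closest were Eef1a2 at 0.39, Gspt1 at -0.25 and Eef1e1 at -0.26 (adjusted p = 0.0857, 0.118 and 0.201). Eef1a1, whose mRNA also carries a TOP tract, was at 12.97 in HMB and 12.98 in controls.

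Genes of mTOR signalling and TOP mRNA control had 1 called of 31, where 1.72% of all genes were called, and a median log2 difference of -0.04. Rragc, a GTPase that brings mTORC1 to the lysosome, had 7.77, 7.51, 7.31, 7.37 and 7.36 in HMB rats, against 7.74, 7.98, 7.93, 7.95 and 7.94 in controls. HMB 1 alone lay above a control, and Rragc fell by 0.45 ± 0.09 (SE; 5 rats a group; limma, adjusted p = 0.0425), a call lost under cyclic loess (adjusted p = 0.0910). Pdcd4, which inhibits the helicase eIF4A, differed by 0.63 (adjusted p = 0.0783) and Rictor, a subunit of mTORC2, by -0.26 (adjusted p = 0.131). Larp1, which binds TOP tracts, differed by 0.0026 and Mtor by -0.04. The Larp1 levels were 10.25, 10.31, 10.52, 10.56 and 10.77 in HMB rats, against 10.51, 10.41, 10.48, 10.54 and 10.47 in controls. HMB 1 and 2 thus lay below every control, and HMB 4 and 5 above every control.

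In the nascent chain list, which holds the signal recognition particle and its partners, 1 of 18 genes rose, where 0.76% of all genes were called higher. Srp54a, the subunit that binds signal peptides, had 8.46, 8.78, 8.99, 8.76 and 8.73 in HMB rats, against 8.31, 7.99, 8.29, 8.16 and 8.26 in controls. Every HMB animal was above every control, the log2 rise was 0.54 ± 0.10 (SE; 5 rats a group; limma, adjusted p = 0.0319), and it passed under cyclic loess too (adjusted p = 0.0431). Srp9 at -0.20 and Srp72 at -0.25 did not pass (adjusted p = 0.176 and 0.187), and the median of the list was -0.09. With HMB 3, 4 and 5 left out, which leaves 2 HMB animals in the fit, none of the 5 called genes passed, and their log2 differences were -0.64 for Rrs1, -0.63 for Gnl3, -0.33 for Imp3, -0.27 for Rragc and 0.42 for Srp54a (limma adjusted p from 0.215 to 0.430).

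Mitochondrial ribosomal proteins, which belong to a separate ribosome, had 0 called of 77, 66 below 0 and a median log2 difference of -0.08. At an unadjusted p under 0.05 there were 8 of the 77, all lower, against 13.4% of all genes with such a p and a lower mean. Mrpl47 was at -0.50 (limma adjusted p = 0.0805), Mrps2 at -0.33 (adjusted p = 0.0954) and mrpl24 at -0.19 (adjusted p = 0.151). After cyclic loess 30 of 77 were below 0 and the median was 0.02, so the direction of this list depended on the scaling.

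Liver markers were bright, with the mean log2 level of 7 hepatocyte markers between 12.64 and 12.82 in HMB and between 12.74 and 12.84 in controls. No marker of hepatocytes, cholangiocytes, endothelium, stellate cells, macrophages, T cells, B cells, neutrophils or erythroid cells was called. The mean of 5 T cell markers ran from 3.85 to 4.16 in HMB and from 3.81 to 4.07 in controls, and that of 4 erythroid markers from 5.30 to 5.73 in HMB and from 4.92 to 5.37 in controls. The part of the erythroid markers in the values above was not tested.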

How the data were processed

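Liver RNA of 10 rats was measured on Affymetrix rat arrays. The authors deposited 1 log2 signal per probe set, made with RMA per the submitters' processing notes, with no version given, and these values were used unchanged. Of 31042 probe sets outside the 57 array controls, 20826 had 1 symbol in the platform annotation, 436 had several and 9780 had none. Symbols were updated by gene identifier to RefSeq GRCr8 (20758 matched). The brightest probe set stood for each of 14217 genes. Groups follow titles, and replicate numbers follow deposition order. Whether animals were independent beyond cage is unknown, and p-values assume it. No 2 of the 45 array pairs were identical.

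HMB minus control was fitted with limma 3.58.1 in R 4.3.3 (lmFit, eBayes, 8 residual and 4.04 prior degrees of freedom), adjusted by Benjamini-Hochberg over all genes at 0.05, with no filter on low signals. The step was tested on simulated data. The simulated noise was independent between genes and arrays, so that test does not cover differences shared across a whole array. The number of arrays limits the precision. Members, lists and alternatives were chosen with earlier results of these data known. Named are the 10 largest falls, the positive differences (7), a fixed set of members, up to 3 genes per related list by p, called genes, and others marked by the count or pattern that names them, chosen after their values were seen. The bright level, the division of the HMB animals, the C and T run and the motif were also set after values were seen. Start sequences are RefSeq's. Figures used matplotlib 3.10.9 in Python 3.11.15.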

Additional observations from a re-analysis of the deposited data

How the results depend on the processing

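No paired analysis was possible because replicate numbers only follow the order of deposition and pair no animals. The number of ribosomal protein genes called lower or higher was 0 in all alternatives but 1, the fit without HMB 1 and 2, which called 3 lower after a choice of animals made on these genes. Their median log2 difference stayed between -0.14 and -0.06 over 27 alternatives, between -0.12 and -0.08 with single animals left out, and was -0.11 over canonical members alone. Of 587 values of 22 named members under alternatives, 29 had the opposite sign, in 12 members. Over all genes, limma called 244 as reported, 82 after cyclic loess, 62 after quantile normalization, 156 with the lowest 50% of levels left out (fewer genes tested), 659 with array weights, 400 with the probe set of largest interquartile range and 30 with HMB 1 counted as a control. It was 0 at an adjusted p of 0.01 and by treat against 1.2-fold, 0 with the poly-A covariate or without HMB 3, 4 and 5, 55 with the GAPDH covariate, 704 without HMB 1 and 2, and 0 to 1014 with single animals left out, namely 0 without HMB 2, control 2, control 3 or control 5, 1 without HMB 4 or HMB 5, 15 without control 4, 157 without HMB 3 and 1014 without control 1. Where limma called 0 genes, between 313 and 3538 had an unadjusted p under 0.05. The cause was not tested. Over the same 27 alternatives Rrs1 was called in 12, Gnl3 and Imp3 in 11 each, Rragc in 10 and Srp54a in 14.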
